A study of Mus musculus with 24 samples.

Results

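The VC family is a set of neuronal nuclei from the ventral part of the mouse lumbar spinal cord, made up of the populations VC-1 and VC-2 in the annotation that the authors deposited. Its members were all nuclei that this annotation calls VC followed by a number, 307 of the 4280 neuronal nuclei placed in one of 43 populations, of 7103 neurons, and of 18000 nucleus barcodes in all. VC-1 held 181 nuclei and VC-2 held 126. The letters VC are not spelled out in the annotation and are kept as a code. The other 3973 placed neurons carry 7 further codes, among them the ventral families VE with 416 nuclei, VI with 612 and VM with 109.

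The study measured RNA in single nuclei by Drop-seq, a droplet method in which each nucleus is caught with a barcoded bead and each captured RNA molecule is counted once through a unique molecular identifier (UMI). Each of 24 libraries, taken here as 1 mouse each, was of the outbred ICR/CD-1 strain, and mice were male or female and 8 to 11 weeks old. The labels name no altered gene and no stimulus for the 9 control mice. The 10 formalin mice received 30 µl of 2% paraformaldehyde in both hindpaws, a chemical pain stimulus, and the 5 rotarod mice walked on a rod that sped up from rest to 40 rpm over 5 minutes, a motor task. Formalin and rotarod mice were first given 1 hour of habituation, and dorsal root ganglia were removed from the cord. No source used here gives the time from stimulus to tissue collection. The tissue field of the labels reads brain, while the protocol describes lumbar spinal cord.

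Neurons that release acetylcholine make it from choline with the enzyme choline acetyltransferase, Chat, and take choline back up through the transporter Slc5a7. In the spinal cord they include the somatic motor neurons that drive skeletal muscle, the autonomic preganglionic neurons that drive peripheral ganglia, and interneurons, among them cells that contact motor neurons through large cholinergic terminals. Cartpt encodes a neuropeptide precursor found in several of these cell types.

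The 3 genes that mark the family are shown here by their promoters, because these genes mark its nuclei in the results that follow. In the GENCODE M21 annotation of GRCm38, Chat lies at chr14:32408203-32465989 on the minus strand, Slc5a7 at chr17:54273590-54299034 on the minus strand and Cartpt at chr13:99898489-99901091 on the minus strand. The promoter windows are from RefSeq, build GRCm38.p6. Each runs from 250 bases before to 50 bases after the gene's RefSeq start and is printed 5′ to 3′ along the gene's own strand. The windows span chr14:32465860-32466159 for Chat, chr17:54298985-54299284 for Slc5a7 and chr13:99900634-99900933 for Cartpt. RefSeq and GENCODE starts need not be the same. The Cartpt window lies wholly inside the GENCODE gene, downstream of its GENCODE start. Capitals mark the letters TGACGTCA, a palindrome known as the cAMP response element, searched on both strands and chosen after the windows had been seen.
Chat: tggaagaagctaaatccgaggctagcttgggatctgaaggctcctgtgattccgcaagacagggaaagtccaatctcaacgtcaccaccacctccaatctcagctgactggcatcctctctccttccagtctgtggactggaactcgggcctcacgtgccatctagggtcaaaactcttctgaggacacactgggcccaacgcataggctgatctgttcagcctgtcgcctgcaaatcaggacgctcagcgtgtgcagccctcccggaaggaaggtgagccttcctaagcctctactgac
Slc5a7: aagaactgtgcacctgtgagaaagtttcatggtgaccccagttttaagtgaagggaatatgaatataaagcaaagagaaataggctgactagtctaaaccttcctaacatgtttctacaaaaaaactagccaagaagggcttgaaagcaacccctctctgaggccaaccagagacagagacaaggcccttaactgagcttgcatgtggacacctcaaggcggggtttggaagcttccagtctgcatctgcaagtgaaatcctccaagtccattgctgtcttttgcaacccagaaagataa
Cartpt: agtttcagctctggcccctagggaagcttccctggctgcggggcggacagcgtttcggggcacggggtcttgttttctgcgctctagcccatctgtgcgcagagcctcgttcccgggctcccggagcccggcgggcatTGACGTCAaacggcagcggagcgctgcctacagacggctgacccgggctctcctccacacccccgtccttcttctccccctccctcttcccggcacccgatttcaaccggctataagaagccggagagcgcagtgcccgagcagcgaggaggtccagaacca
The motif was found in the Cartpt window, starting at position 139 from its 5′ end, and in 1.79% of all 32851 promoter windows of this length. It was not found in the Chat or Slc5a7 windows. The homeodomain letters TAATTA, also a palindrome, were in none of the 3 windows, against 5.29% of all windows.

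Libraries held between 549903 and 3243587 UMIs, with 750 barcodes each. Among all 24 libraries, 19 barcode sequences occurred in more than 1, on 42 barcodes, and none of these was a VC nucleus. The formalin libraries fell into 5 close pairs: in all neurons, each of replicates 1 to 5 was nearest to the one of replicates 6 to 10 that stands 5 numbers later, with correlations of deviations from the group mean between 0.156 and 0.393 over 6793 genes, against at most 0.0827 with any other formalin library. Whether paired libraries came from the same mouse is not stated, so values with pairs merged are given where they differ. VC nuclei gave 1125615 UMIs in all, with a median of 3081 UMIs per nucleus (range 1055 to 17030) and 1568 genes. The median was 3038 UMIs in VC-1 and 3121 in VC-2, against 2836 in the other placed neurons and 1092 in oligodendrocytes. A gene with 0 UMIs in the family may still stand at up to 2.67 counts per 1000000 UMIs (CPM), and intervals given here cover counting error only.

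VC nuclei came from all 24 mice, with 2 to 36 per mouse and a median of 10. VC-1 gave 1 to 20 nuclei per mouse (median 6) and VC-2 gave 1 to 17 (median 4). Sums per mouse used the 22 mice with 5 or more VC nuclei, which were all 9 control mice, 8 formalin mice and all 5 rotarod mice. Formalin 3 with 2 nuclei and formalin 6 with 4 were left out of these sums.

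**Figure D1:**
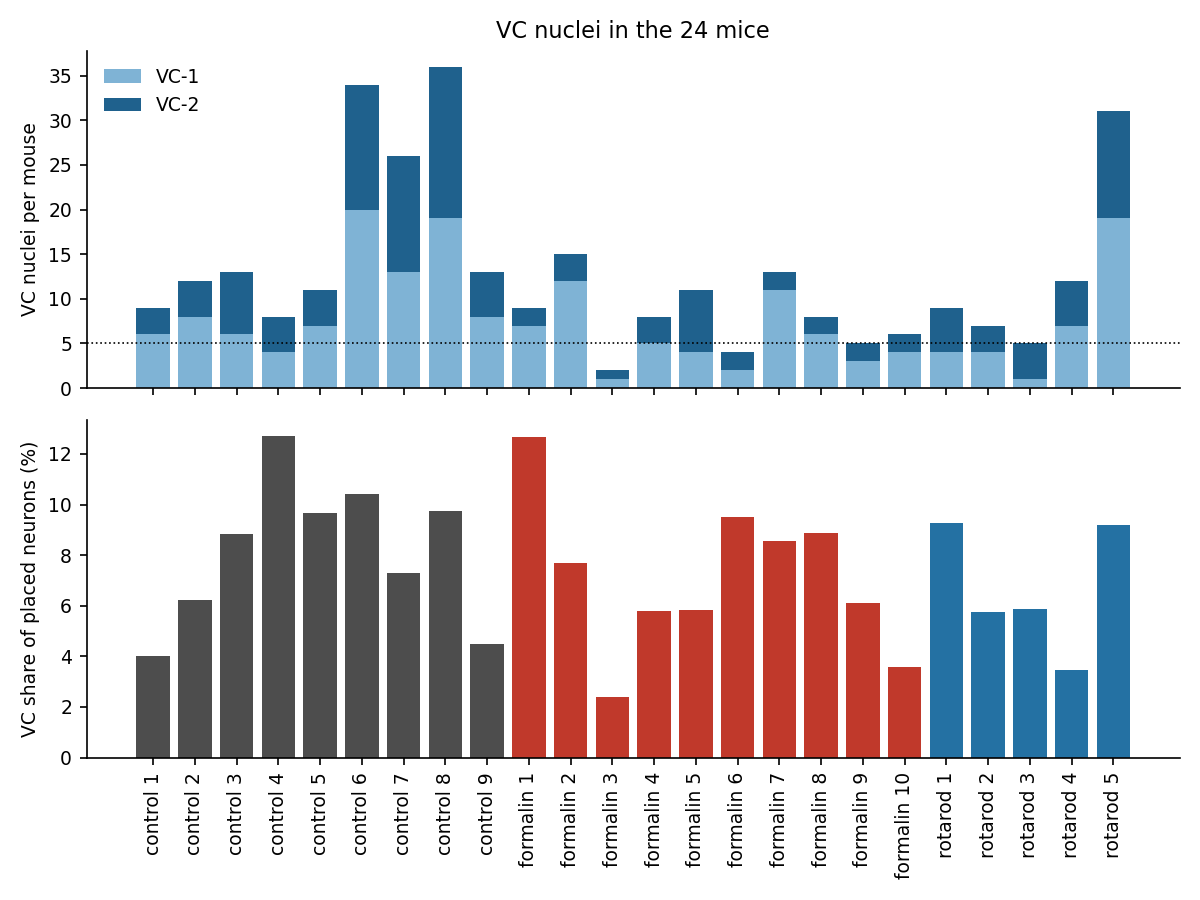
VC nuclei in each of the 24 mice (upper panel, bars stacked by population, with the minimum of 5 nuclei as a dotted line) and the VC share of placed neurons in percent (lower panel, 1 bar per mouse, coloured by group). Only formalin 3 and formalin 6 fell below the line, and the shares of the 3 groups overlapped.

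The 3 marker genes were each higher in the VC family than in every other family. Chat stood at 62.2 CPM in VC nuclei summed over all mice (95% exact Poisson interval 48.5 to 78.6, from 70 UMIs), against 6.06 CPM in the other placed neurons. Among the other families its level was highest in VM, at 28.5 CPM, followed by MI at 8.96, VI at 6.78, ME at 5.16, VE at 4.92, DE at 3.58 and DI at 2.04 CPM. The populations were made from these same counts, so levels between families are a description and carry no test.

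Across the 22 mice, Chat in VC ran from 0 through a median of 51.5 to 307 CPM. It was above the level of the other placed neurons of the same mouse in 16 mice, with a median within-mouse log2 ratio of 1.95 (10 CPM added to both levels here and in all such ratios). Slc5a7 stood at 44.4 CPM (33.0 to 58.6, 50 UMIs) against 4.19 CPM in the other placed neurons, and was also higher in 16 of 22 mice (median log2 ratio 1.53). Cartpt stood at 36.4 CPM (26.1 to 49.4, 41 UMIs) against 1.56 CPM, and was higher in 13 of 22 mice (1.34). In every mouse where Chat was not higher, its VC nuclei held no Chat UMI.

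**Figure D2:**
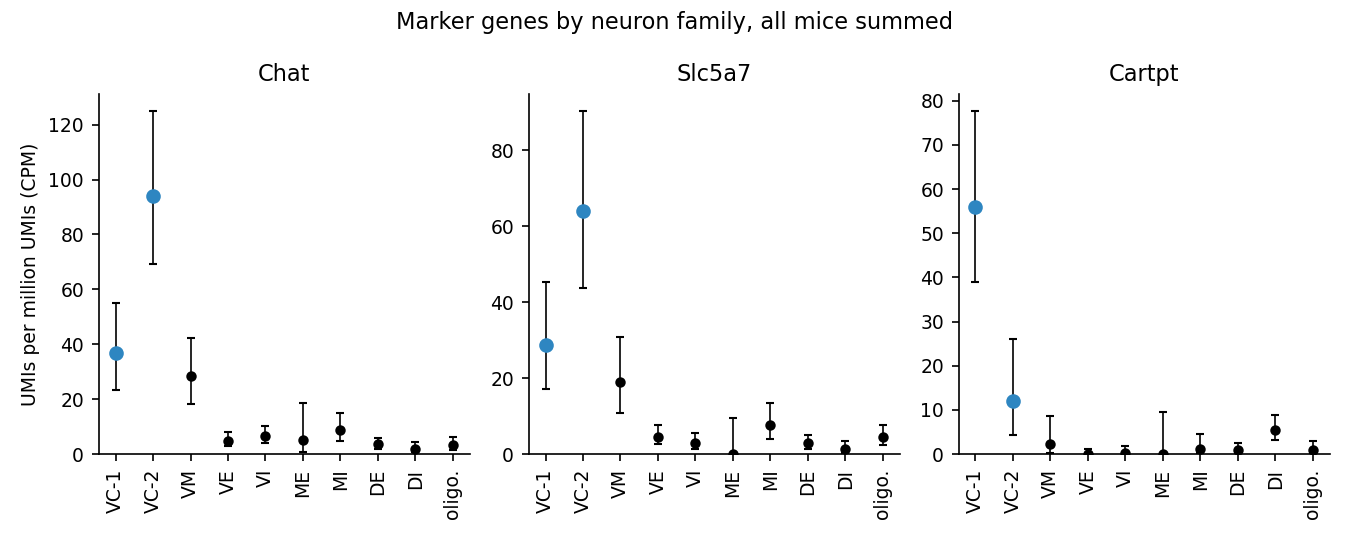
Level of Chat, Slc5a7 and Cartpt in CPM in the nuclei of VC-1 and VC-2 (blue), the other 7 families and oligodendrocytes, summed over all mice. Points carry 95% exact Poisson intervals on an axis that starts at 0, and VM at 28.5 CPM of Chat was the nearest other family.

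Most VC nuclei showed no UMI of any marker. A Chat UMI was found in 39 of 307 VC nuclei (12.7%, exact Clopper-Pearson 95% interval 9.19 to 17%), in 57 of 3973 other placed neurons (1.43%) and in 10 of 2184 oligodendrocytes (0.458%), myelin-forming cells that should lack the gene. With each nucleus thinned to 1000 UMIs these shares were 5.54%, 0.414% and 0.503%, so the share in other placed neurons was at the oligodendrocyte level and that in VC was not. Thinning left out 0 VC nuclei, 111 other placed neurons and 991 oligodendrocytes below that depth.

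Slc5a7 had a UMI in 10.1% of VC nuclei, 1.08% of other placed neurons and 0.549% of oligodendrocytes, and after thinning in 2.61%, 0.440% and 0.503%. Cartpt had a UMI in 5.21%, 0.478% and 0.137%, and after thinning in 2.28% of VC nuclei and 0.181% of other placed neurons. Chat or Slc5a7 was found in 58 of 307 VC nuclei (18.9%, 14.7 to 23.7%), in 10.1% of VM, 4.81% of VE and 2.29% of VI nuclei, and in 1.01% of oligodendrocytes. Both genes were found together in 12 VC nuclei (3.91%), in 4 of 109 VM nuclei (3.67%) and in 0.227% of other placed neurons. Of the VC nuclei with Chat or Slc5a7, 5 also had a UMI of the vesicular glutamate transporter Slc17a6, and 14 had one of the GABA or glycine genes Gad1, Gad2, Slc32a1 or Slc6a5. Slc17a6 itself was found in 78 of 307 VC nuclei (25.4%), more than had Chat or Slc5a7. Its share was 16.4% in other placed neurons and 38.5% in VE. In VC-1, 28.7% of nuclei had Slc17a6 and 12.7% had Chat or Slc5a7, while in VC-2 these shares were 20.6% and 27.8%. After thinning, Slc17a6 was found in 8.14% of VC nuclei, 5.59% of other placed neurons and 8.17% of VE nuclei.

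Other genes of acetylcholine handling did not all follow the markers. Ache, the esterase that breaks acetylcholine down, stood at 60.4 CPM in VC and 38.9 CPM in the other placed neurons, and was higher in 15 of 22 mice (median log2 ratio 0.43). Prima1, which anchors that esterase in the membrane, stood at 37.3 against 10.3 CPM and was higher in 14 mice (0.91). The choline transporter Slc44a1 (97.7 against 124 CPM, log2 ratio −0.39) and the choline kinase Chka (171 against 181 CPM, −0.29) lay lower in VC. Slc18a3, the vesicular acetylcholine transporter, was not analysed here.

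Some genes that mark somatic motor neurons were nearly absent. Mnx1, a transcription factor of motor neurons, had 2 UMIs in all VC nuclei, Lhx3 had 1, Isl2 had 0, and Mmp9, found in fast motor neurons, had 1. Isl1 stood at 16.9 CPM, but 9 of its 19 UMIs came from control 3. Chodl, another fast motor neuron gene, had 14 UMIs. Of the 26 measured genes of the motor neuron list, 7 had 20 CPM or more over all placed neurons, of which 3 were higher and 4 lower in VC (median log2 ratio −0.03). The background for such counts is all 6378 genes at that level, of which 2116 were higher and 4259 lower in VC, with a median of −0.15. VC is a small part of the placed neurons, so a gene found mainly in VC can fall below that level. Such counts therefore cannot decide whether a list marks the family.

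Among the 7, Stk32a, which encodes a protein kinase, stood at 75.5 against 37.9 CPM (log2 ratio 0.61) and the transcription factor Foxp1 at 154 against 106 CPM (0.41). The orphan nuclear receptor Esrrg, a marker of gamma motor neurons, was lower at 319 against 472 CPM (−0.45). Autonomic motor neuron genes were split between the populations, as described below with VC-1 and VC-2. Checked against markers, the family thus held raised Chat, Slc5a7 and Cartpt, while Mnx1, Lhx3, Isl2 and Mmp9 were at or near 0. Some other somatic motor neuron genes were found more often in VC than in the other placed neurons. Prph had a UMI in 6.84% of VC nuclei against 0.327%, Isl1 in 3.58% against 0.378% and Tns1 in 10.1% against 4.38%.

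Genes of the ventral lineage list varied widely in VC. No UMI was found in VC for Evx1, Evx2, En1, Gata3, Chrna2 or Nkx2-2, transcription factors and a nicotinic receptor subunit that mark other ventral classes. For each of these a level of up to 2.67 CPM is allowed by the depth. Onecut2, a homeodomain factor, stood at 88.8 against 37.9 CPM and was higher in 18 of 22 mice (log2 ratio 1.25), and Pou2f2, a POU-domain factor, at 134 against 63.8 CPM and was higher in 19 (0.94). Tcf4, a basic helix-loop-helix factor, ran the other way, at 165 against 307 CPM (−1.10). Of the 26 genes of this list, 10 had 20 CPM or more over all placed neurons. Of these, 5 were higher and 5 lower in VC (median log2 ratio −0.14). The list summed to 2863 CPM in VC, 1848 in VM, 1755 in VE and 1478 in VI. A sum follows its most abundant genes, so it does not show the list as a whole to be higher in VC.

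Zfhx3, a large zinc finger and homeodomain transcription factor, was far higher in VC than in the other placed neurons. It stood at 736, 1843 and 3496 CPM (lowest, median and highest mouse) in VC and at 165, 333 and 486 CPM in the other placed neurons, with a median log2 ratio of 2.36. It was higher in VC in 22 of 22 mice, and the lowest VC value lay above the highest value of the other placed neurons. In these ratios VC was set against the nuclei of the other 7 families summed together, and genes were ranked among those at 100 CPM or more in VC.

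Zfhx3 had a UMI in 241 of 307 VC nuclei (78.5%), in 34.2% of other placed neurons and in 17.5% of oligodendrocytes. After thinning to 1000 UMIs the shares of VC and of the other placed neurons were 64.8% and 17.5%. VE had an unthinned share of 77.6%, close to that of VC, but 44.0% after thinning, with a median of 6192.5 UMIs per nucleus. VM had 64.2% unthinned and 37.6% after thinning, and VI had 55.2% and 27.6%.

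Genes of ion channels, receptors and axon guidance were also among those with the highest ratios. Piezo2, a mechanically gated channel, had a median log2 ratio of 2.06 and was higher in 19 of 22 mice, and Scn9a, a voltage-gated sodium channel, had a ratio of 1.74 (21 mice). Kcnn3, a calcium-activated potassium channel of small conductance, had a ratio of 1.49 (21 mice). Slit3, a secreted guidance protein, had a ratio of 1.81 (18 mice), and Ndst4, an enzyme of heparan sulfate synthesis, had 1.69 (21 mice). The receptor tyrosine kinase Alk had 1.5 (19 mice), and Tacr1, the substance P receptor, had 1.30 (17 mice).

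Creb5, a transcription factor, had a ratio of 1.39 and was higher in 17 mice, while oligodendrocytes stood at 302 CPM of this gene. VC-1 did not share the higher level, with a Creb5 UMI in 4.42% of its nuclei. The share was 37.3% in VC-2 and 8.05% in other placed neurons. After thinning to 1000 UMIs it was 2.21% in VC-1, 19.0% in VC-2 and 2.69% in other placed neurons. Penk, the enkephalin precursor, had a ratio of 1.12 (17 mice) and Rgs9, a regulator of G protein signalling, 1.18 (19 mice). Gnas, the stimulatory G protein subunit, had a smaller ratio of 1.08 but was higher in 22 of 22 mice, at 851, 1454 and 2877 CPM against 572, 698 and 862 CPM. Nrg1, the neuregulin that binds ErbB receptors, stood at 2232, 5073 and 10939 CPM against 1482, 2474 and 2964 CPM (ratio 1.02, 21 mice).

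The remaining genes described were Il1rapl2, Dpysl5, Ptprz1, Xylt1, Fnbp1l and Pde1a, with ratios from 0.98 to 1.28. Ptprz1, a receptor phosphatase, also stood at 1128 CPM in astrocytes. The genes next in rank were Adcy2 (0.96) and Fbxl7 (0.96). Of the 19 genes described, 2 were higher in VC in every mouse and 18 in at least 17 of 22.

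**Figure D3:**
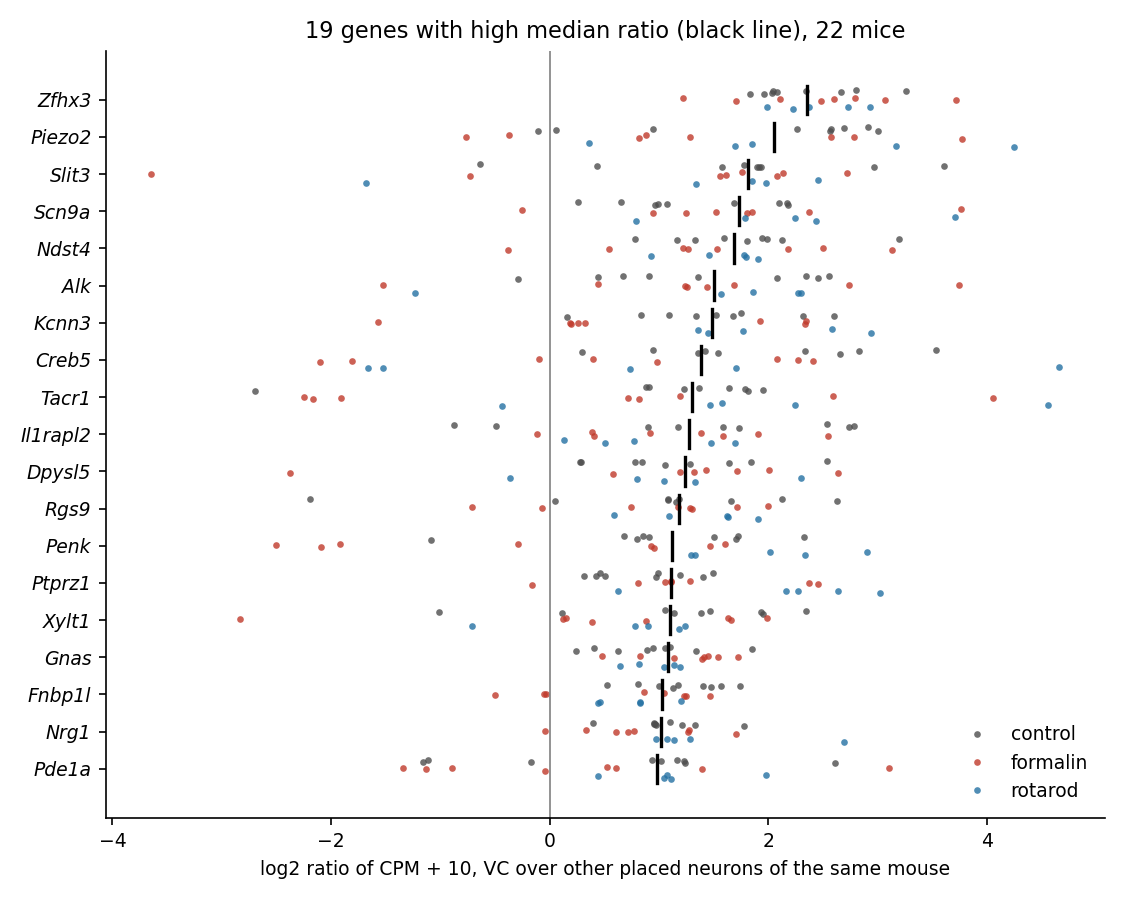
Within-mouse log2 ratio of the VC level to that of the other placed neurons (10 CPM added to each) for 19 genes with high median ratios. Each dot is 1 of 22 mice, coloured by group, and the black line is the median, which runs from 2.36 for Zfhx3 to 0.98 for Pde1a.

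Channel genes varied in both directions. Of 20 potassium channel genes at 20 CPM or more, 8 were higher and 12 lower in VC. The M-type channel genes Kcnq5 (910 against 584 CPM, log2 ratio 0.77) and Kcnq3 (891 against 651 CPM) were higher, and the fast delayed rectifiers Kcnc1 (61.3 against 108 CPM, −0.79) and Kcna2 (48.9 against 112 CPM) were lower. Of 20 sodium and calcium channel genes, 8 were higher and 12 lower. Besides Scn9a, the sodium channel Scn3a (267 against 181 CPM) and the calcium channel subunit Cacna2d1 (730 against 482 CPM) were each higher in 19 of 22 mice, whereas Cacna2d3 (348 against 569 CPM, −1.05) and Scn1a (475 against 669 CPM, −0.57) were lower.

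Receptor genes also differed within each class. Of 22 glutamate receptor genes, 8 were higher and 14 lower in VC. Grik1, a kainate receptor subunit, stood at 978 against 509 CPM (log2 ratio 0.85) and its partner Grik5 at 172 against 105 CPM, higher in 19 mice, while the AMPA receptor subunits went opposite ways, Gria1 at 1162 against 812 CPM and Gria3 at 385 against 721 CPM (−0.97). Of 17 GABA and glycine receptor genes, 8 were higher and 9 lower, with Gabrb1 at 1084 against 607 CPM (0.93, higher in 20 mice) and the glycine receptor subunit Glra1 at 435 against 722 CPM (−0.74). Muscarinic receptors for acetylcholine itself were split, with Chrm2 at 534 against 391 CPM (0.49) and Chrm3 at 223 against 434 CPM (−0.96).

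Of 8 genes of the axon and its cytoskeleton, 7 were higher in VC, with a median log2 ratio of 0.35. Over all genes 2116 of 6378 were higher, with a median of −0.15. That background was not matched for level, since 8 genes of the list but 3465 of all genes stood at 50 CPM or more in VC. The 2 medians therefore do not decide whether the list as a whole differs from other genes. Stmn2, a microtubule regulator of growing axons, stood at 278 against 158 CPM and was higher in 19 of 22 mice. Map1b, a microtubule-associated protein, stood at 919 against 650 CPM and was higher in 20, and the growth cone protein gene Gap43 stood at 133 against 83.0 CPM. Nefh, the heavy neurofilament subunit, was the lower one, at 96.8 against 107 CPM (−0.33). The 4 Hox genes at 20 CPM or more, which set position along the body axis, were all lower in VC, with a median of −0.81. Only 2 Hox genes stood at 50 CPM or more in VC, so these ratios rest on few UMIs per mouse. The neurotrophin receptor gene Ntrk3 was higher in 22 of 22 mice, at 679 against 506 CPM (0.41).

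Across genes, levels in VC were closest to those of VM. With each set thinned to 387322 UMIs, the Pearson correlation of log levels across 3412 genes was 0.934 between VC and VM, 0.926 with MI and between 0.893 and 0.907 with the other 5 families. VC-1 and VC-2 correlated at 0.938 with each other, VC-1 at 0.940 with VM and VC-2 at 0.908 with VM. Genes are not replicates and nuclei of all families share their libraries, so no p-value is given.

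Genes of other cell types stood in VC at or below their level in other neurons, with the exception of sensory neuron genes and of oligodendrocyte precursor genes (31.98 against 21.8 CPM). The 6 oligodendrocyte genes, Mbp among them, summed to 1157 CPM in VC, 1245 CPM in the other placed neurons and 17572 CPM in oligodendrocytes. Astrocyte genes summed to 114 CPM in VC, 131 CPM in the other placed neurons and 4252 CPM in astrocytes. Microglial genes summed to 16.9 CPM and the sensory neuron genes Scn10a, Avil and Prdm12 to 8.88 CPM in VC, against 20.8 and 2.06 CPM in the other placed neurons. Whether doublets contributed was not tested, since the annotated nuclei were taken as deposited.

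VC-1 and VC-2 differed in marker genes of cholinergic cell types. Chat stood at 36.7 CPM in VC-1 and 94.1 CPM in VC-2, and Slc5a7 at 28.8 and 64.0 CPM, while Cartpt ran the other way at 55.9 and 12.0 CPM. A Chat UMI was found in 15 of 181 VC-1 nuclei (8.29%) and 24 of 126 VC-2 nuclei (19.0%). The populations were made from these counts, so all differences between them are a description. Ratios between VC-1 and VC-2 were taken within the 7 mice that had 5 or more nuclei of both. These were control 3, 6, 7, 8 and 9 and rotarod 4 and 5, with no formalin mouse among them.

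Both genes of the cholinergic interneuron list that had 20 CPM or more, of 6 measured, were higher in VC-1 than in VC-2, with a median log2 ratio of 1.53. Both were lower in VC as a whole than in the other placed neurons (median −1.53), and the list summed to 349.8 CPM in VC-1, 66.0 in VC-2, 356 in the other placed neurons, 474 in MI and 699 in DI. Pax2, a paired box factor of ventral and dorsal interneurons, stood at 71.9 CPM in VC-1 and 4.0 CPM in VC-2 and was higher in VC-1 in 7 of 7 mice. The other placed neurons stood at 102 CPM of Pax2, above either population. Mpped2 stood at 225 and 58.0 CPM, and Lhx1, a LIM homeobox factor, at 17.6 and 2.00 CPM.

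Prph and genes of autonomic motor neurons were higher in VC-2. Prph, the peripheral neuron intermediate filament peripherin, stood at 1.6 CPM in VC-1 and 74.1 CPM in VC-2, and had a UMI in 1 of 181 nuclei (0.552%) against 20 of 126 (15.9%). Gfra3, a receptor subunit for artemin, stood at 4.79 and 26.0 CPM. Nitric oxide synthase Nos1, which many preganglionic neurons use, stood at 28.8 and 62.1 CPM, and the transcription factor Zeb2 at 94.3 and 212 CPM. Prph, Isl1 or Gfra3 was found in 3.87% of VC-1 nuclei, 25.4% of VC-2 nuclei, 0.956% of other placed neurons and 0.321% of oligodendrocytes. Prph and Isl1 were taken as somatic motor neuron markers here, and Isl1 UMIs leaned on control 3, as given above. Gfra3 alone had a UMI in 1.66% of VC-1 nuclei and 5.56% of VC-2 nuclei. All 4 autonomic motor neuron genes at 20 CPM or more were higher in VC-2, with a median log2 ratio of VC-1 to VC-2 of −1.41, against a median of 0.00 over all genes, of which 2732 were higher in VC-1 and 2531 in VC-2. Oligodendrocyte genes leaned the same way, with 4 of 5 higher in VC-2 and none higher in VC-1 (median −0.25), at summed levels of 1134 CPM in VC-1 and 1185 CPM in VC-2. Mitochondrially encoded genes summed to 1423 and 2112 CPM, and astrocyte genes to 120 and 106 CPM. Zeb2 stood at 2892 CPM in oligodendrocytes and Sema5a at 359 CPM, whereas Nos1, Fbn2 and Gfra3 stood there at 8.52, 62.4 and 0.682 CPM. The part of RNA from other cells in the VC-2 levels was not tested.

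The largest ratios lay partly outside these lists. In favour of VC-1, Dscaml1, a cell adhesion gene of the immunoglobulin family, stood at 181 CPM in VC-1 and 26.0 CPM in VC-2 (median log2 ratio 3.07, higher in 6 of 7 mice). Fstl4 had a ratio of 2.22, Adarb2, an RNA-binding relative of the RNA-editing enzymes, 1.91 with 891 and 204 CPM, and Trank1 1.85 with 7 of 7 mice. In favour of VC-2, Creb5 stood at 12.8 and 268 CPM (ratio −3.94) and was lower in VC-1 in 7 of 7 mice, with a UMI in 4.42% of VC-1 and 37.3% of VC-2 nuclei. The extracellular matrix gene Fbn2 stood at 54.3 and 428 CPM (−2.64), Slit3 at 204 and 791 CPM (−2.44), and Fgf13, an intracellular partner of sodium channels, at 133 and 440 CPM (−1.97).

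Several genes that were high in the family stood higher in VC-2. Nrg1 stood at 3235 CPM in VC-1 and 7430 CPM in VC-2, and Grik1 at 497 and 1581 CPM. VC-1 had the higher levels of 15 of 17 GABA and glycine receptor genes, with a median ratio of 0.30, against 2732 of all 6378 genes and a median of 0.00, among them Glra1 at 593 against 238 CPM and higher in 7 of 7 mice. The transmitter genes Gad2 (52.7 and 20.0 CPM) and Slc6a5 (31.9 and 6.0 CPM), of GABA synthesis and glycine uptake, also lay higher in VC-1, whereas Slc17a6 stood at 102 and 86.1 CPM.

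**Figure D4:**
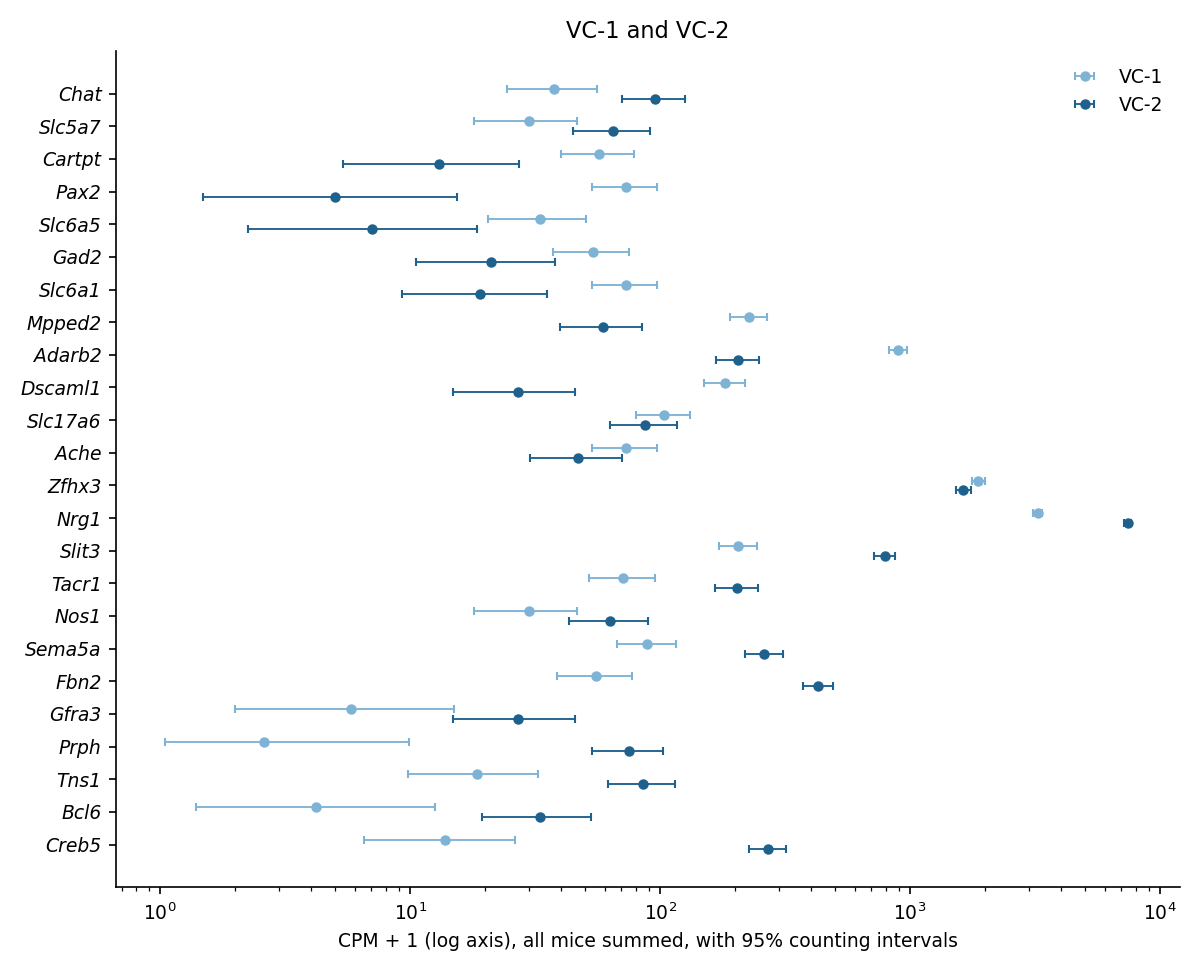
Level in VC-1 (light blue) and VC-2 (dark blue) of 24 genes, in CPM plus 1 on a log axis, with 95% counting intervals from nuclei summed over all mice. Pax2 and Prph lie apart in opposite directions, with Pax2 at 71.9 CPM in VC-1 and 4.0 CPM in VC-2 and Prph at 1.6 CPM in VC-1 and 74.1 CPM in VC-2.

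The share of VC nuclei among placed neurons did not differ between groups beyond the spread between mice. It was 8.16 ± 2.88% in control mice (SD, n = 9; 4.02 to 12.7%), 7.11 ± 3.01% in formalin mice (n = 10; 2.41 to 12.7%) and 6.71 ± 2.50% in rotarod mice (n = 5; 3.45 to 9.28%). Exact permutation tests over mice, two-sided and adjusted by Benjamini-Hochberg over the 3 pairs of groups, gave adjusted p = 0.667 for formalin against control, 0.667 for rotarod against control and 0.805 for formalin against rotarod. Taken over all neurons, placed or not, the share was 5.01 ± 1.42% in control and 3.32 ± 1.16% in formalin mice, a difference of −1.69 percentage points (exact permutation adjusted p = 0.0347). Formalin mice had 1209 placed among 2392 neurons and control mice 2082 among 3118, and the part of this gap in placement in the second result was not tested. The p-value over all neurons counts each of the 10 formalin libraries as 1 mouse, and it was not computed with formalin pairs merged. P-values here and below measure the spread between mice as the labels give them.

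The make-up of the family varied between mice. VC-1 made up 57.4 ± 7.80% of VC nuclei in control mice (n = 9), 67.9 ± 15.4% in formalin mice (n = 8) and 48.2 ± 17.1% in rotarod mice (n = 5). None of the 3 differences passed adjustment, with exact permutation adjusted p = 0.139 for formalin against control, 0.191 for rotarod against control and 0.139 for formalin against rotarod. Without formalin 5 the first difference was 15 percentage points with an exact permutation adjusted p of 0.00774, against 10.5 with it. Since VC-1 and VC-2 differ in gene levels, summed VC levels may shift with this make-up, and its part in the group values below was not tested.

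The depth of VC nuclei was like that of other placed neurons of the same mouse. The within-mouse log2 ratio of median UMIs per nucleus was 0.11 on average, with VC higher in 11 of 22 mice (two-sided sign-flip permutation p = 0.133). Against the VE, VI and VM nuclei alone it was −0.66, with VC higher in 2 of 22 mice and the smallest p that 100000 resamples can give, 2e-05. The library of rotarod 1 stood apart with a ratio of 0.85, the next rotarod mouse being at −0.05.

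No gene passed the test in VC in any comparison between groups. Raw UMIs were summed per mouse and tested with edgeR's quasi-likelihood test, with p-values adjusted over all 781 genes that passed a filter on low counts. Of these, 0 were called for formalin against control (0%), for rotarod against control (0%) and for formalin against rotarod (0%). At an unadjusted p under 0.05 there were 50, 44 and 63 genes, and DESeq2 called 0, 0 and 1 gene (0.128% for the last) with 57, 46 and 67 at an unadjusted p under 0.05. The median log2 fold change over the 781 genes was 0.02, −0.01 and 0.02.

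Chat, Slc5a7 and Cartpt had too few UMIs for that filter, and their levels are given by mouse. In the 9 control mice, Chat in VC ran from 0 through a median of 31.6 to 67.2 CPM, with a mean of 30.8 ± 27.0. In formalin mice the values were 0, 68.3, 92.8, 27.2, 60.5, 99.2, 0 and 123 CPM, and in rotarod mice 190, 307, 0, 55.4 and 63.1 CPM. The highest values belonged to rotarod 1 and 2, and the groups overlapped.

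Slc5a7 stood at 45.3 ± 46.8 CPM in control, 45.9 ± 54.8 in formalin and 39.4 ± 47.6 in rotarod mice, where the 5 values were 114, 55.9, 0, 0 and 27.1 CPM. Cartpt stood at 33.2 ± 44.2, 53.9 ± 82.9 and 22.2 ± 20.3 CPM. A single formalin mouse held the highest value of each, 173 CPM for Slc5a7 in formalin 1 and 245 CPM for Cartpt in formalin 10. The 7 measured genes of acetylcholine handling summed to 487 ± 146 CPM in control, 490 ± 209 in formalin and 523 ± 248 in rotarod mice.

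Formalin against control gave 0 calls, and the 5 genes with the smallest p are given as values. Ppp1r9a, an actin-binding protein of the synapse also called neurabin, stood at 166, 246 and 358 CPM (lowest, median and highest) in control and 212, 439 and 952 CPM in formalin mice, higher by 0.89 on the log2 scale with an SE of 0.246 (edgeR adjusted p = 0.415). Inpp4b, a phosphoinositide phosphatase, stood at 284, 718 and 1433 CPM in control and 49.6, 367 and 726 CPM in formalin mice (log2 fold change −1.04, SE 0.313). Values of both genes overlapped between the groups, and with no filter on low counts Inpp4b was called (−1.29, edgeR adjusted p = 0.0301). The other 3 were the ephrin receptor gene Epha10 (0.79), the formin Fmn2 (−0.88) and the adhesion gene Cadm1 (−0.81), all with the same edgeR adjusted p of 0.415.

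Rotarod against control also gave 0 calls. Fam19a2, which encodes a small secreted protein of neurons, stood at 143, 316 and 562 CPM in control mice and at 531, 781, 838, 868 and 947 CPM in rotarod mice (log2 fold change 1.02, SE 0.261, edgeR adjusted p = 0.318). In rotarod mice 4 of the 5 values lay above every control value. Clstn2, a calsyntenin of the postsynaptic membrane, stood at 468, 569 and 754 CPM in control and at 607, 794, 1016, 1649 and 2232 CPM in rotarod mice (1.01). The RNA-binding protein gene Celf2 (0.86, edgeR adjusted p = 0.318), the netrin receptor gene Unc5d (−1.22, adjusted p = 0.513) and Dpp10 (−0.92, adjusted p = 0.685) made up the 5.

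For formalin against rotarod, Snhg11 had the smallest p. This noncoding RNA of neurons stood at 5928, 7726 and 10863 CPM in formalin mice and at 3577, 3683, 4894, 5131 and 5595 CPM in rotarod mice. The log2 fold change was 0.84 (SE 0.204), with an edgeR adjusted p of 0.168 and a DESeq2 adjusted p of 0.00586, the 1 call by that tool. Control mice stood at 4529, 6098 and 8709 CPM, between and overlapping both.

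Dpp10, a partner of the A-type potassium channels, stood at 299, 953 and 1558 CPM in formalin and at 167, 304, 307, 535 and 622 CPM in rotarod mice (log2 fold change 1.18, edgeR adjusted p = 0.168). Without formalin 5 this was the 1 gene called, with a log2 fold change of 1.33 and an edgeR adjusted p of 0.0320. The values of 299 in formalin and 622 in rotarod mice overlapped. Fam19a2 (−1.09, adjusted p = 0.168), the ubiquitin ligase gene Nedd4l (−1.07, adjusted p = 0.332) and the adenylyl cyclase gene Adcy8 (1.27, adjusted p = 0.332) were the other 3 by edgeR. Rotarod 2 alone set the highest value of Nedd4l, 1090 CPM, with the next rotarod mouse at 558 CPM.

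**Figure D5:**
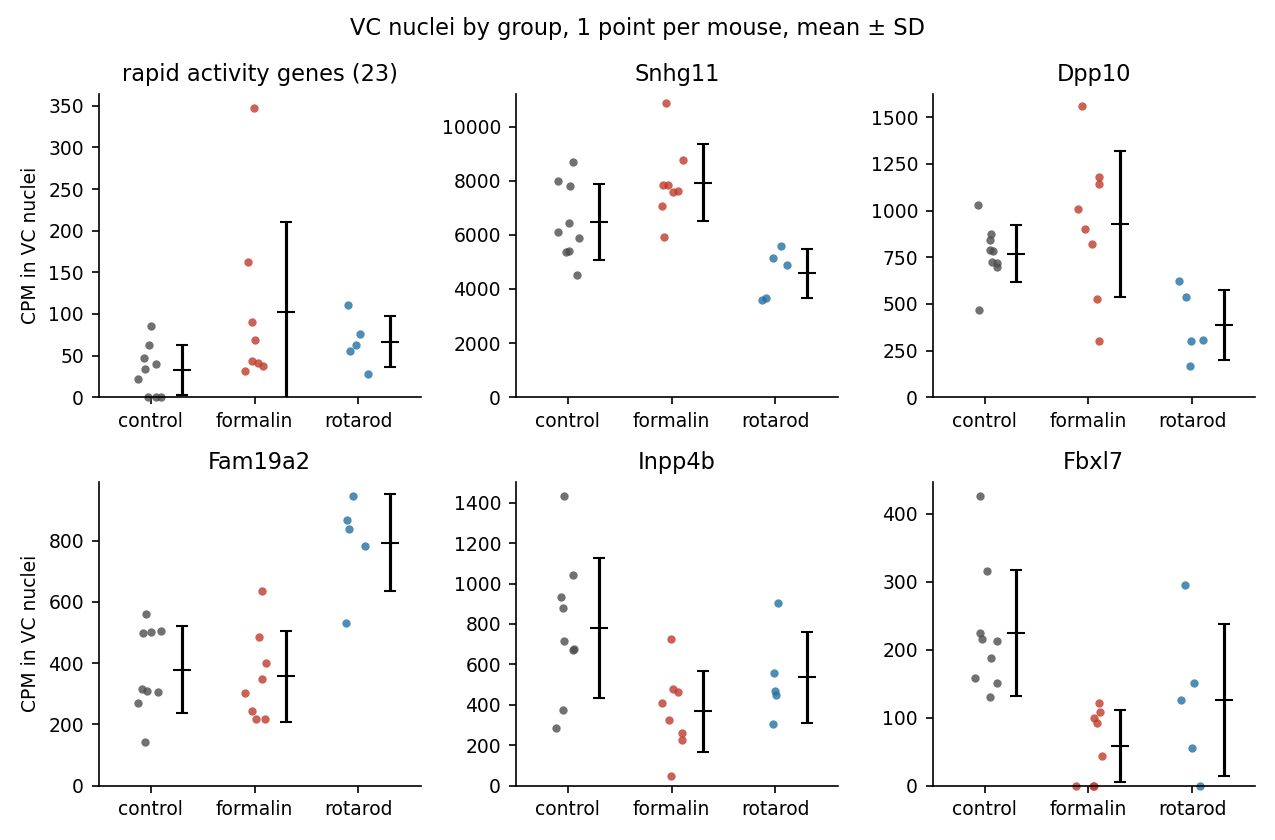
Levels in VC per mouse in CPM in control, formalin and rotarod mice, for the sum of 23 rapid activity genes and for Snhg11, Dpp10, Fam19a2, Inpp4b and Fbxl7. Dots are mice and bars are mean ± SD, and no comparison of these groups passed the threshold in the test as set out, while the text names the other settings under which the activity sum, Dpp10, Inpp4b and Fbxl7 (edgeR) or Snhg11 (DESeq2) did.

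The VC difference between groups was set against that in the VE, VI and VM nuclei of the same mice. With the mouse as a block, edgeR called 0 of 2683 genes for formalin (0%) and 0 of 2683 for rotarod (0%), each against control, with 108 and 71 genes at an unadjusted p under 0.05. DESeq2 called 0 in both, with 110 and 87 at that level. Fbxl7, an F-box protein of ubiquitin ligases, had the smallest p for formalin. It stood in VC at 131, 213 and 425 CPM in control and at 0, 68.0 and 121 CPM in formalin mice. These formalin values rest on 14 UMIs in 5 of the 8 mice, and the control values on 126 UMIs. In the other ventral nuclei it stood at 31.0 ± 19.3 CPM in control and 47.6 ± 34.1 CPM in formalin mice.

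With no filter on low counts, Fbxl7 in VC alone was called for formalin against control (−2.09, edgeR adjusted p = 0.0255). The difference of the differences for Fbxl7 was −2.31 on the log2 scale (SE 0.593, edgeR adjusted p = 0.395). Plcb1, a phospholipase C, had −1.10 (adjusted p = 0.395), and Sncaip (1.35), Pou6f1 (1.72) and Gas5 (1.66) followed. For rotarod, Dpp10 had the smallest p, with a mean of 769 CPM in VC of control and 387 CPM in VC of rotarod mice, against 638 and 888 CPM in the other ventral nuclei. The difference of the differences was −1.37 (SE 0.344, edgeR adjusted p = 0.561). Neto1 (−2.50), Kcnq5 (−1.39), Clstn2 (0.95) and Csgalnact1 (−2.39) followed, none of them called.

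Genes induced within minutes of neuronal activity were rare in VC. The 23 genes, taken as Fos, Fosb, Fosl2, Jun, Junb, Egr1, Egr2, Egr3, Egr4, Arc, Npas4, Nr4a1, Nr4a2, Nr4a3, Dusp1, Ier2, Ier3, Ier5, Btg2, Atf3, Klf2, Klf4 and Cyr61, summed to 27 UMIs in control, 23 in formalin and 17 in rotarod mice. Per mouse they stood at 0, 33.3 and 85.2 CPM (lowest, median and highest) in control mice, with a mean of 32.3 ± 30.2. Formalin mice stood at 30.9, 55.8 and 347 CPM with a mean of 103 ± 108, and rotarod mice at 27.9, 55.8, 63.1, 75.9 and 111 CPM with a mean of 66.7 ± 30.3. All 3 groups overlapped.

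None of the differences in rapid activity genes passed adjustment. Exact permutation gave p = 0.0317 (adjusted 0.0950) for formalin against control, p = 0.0654 (adjusted 0.0982) for rotarod against control and an adjusted p of 0.618 for formalin against rotarod. The mean of formalin mice leaned on formalin 8, without which the difference from control was 35.5 CPM in place of 70.4 CPM. With formalin pairs merged it was 77.9 CPM with an exact permutation adjusted p of 0.0390, and with nuclei thinned to 500 UMIs the rotarod difference turned from 34.4 to −5.88 CPM. Fos alone had 1 UMI in control, 5 in formalin and 2 in rotarod mice, at means of 0.728, 17.2 and 3.61 CPM, with exact permutation adjusted p of 0.247 for formalin and 0.357 for rotarod against control.

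Markers of other cells in VC overlapped between the groups. Oligodendrocyte genes summed to 1115 ± 593 CPM in control, 715 ± 335 in formalin and 965 ± 740 in rotarod mice, with ranges of 406 to 2097, 373 to 1290 and 168 to 2086 CPM. Astrocyte genes stood at means of 92.8, 80.1 and 191 CPM. Mitochondrially encoded genes, whose RNA is made outside the nucleus, summed to 1706 ± 1741, 1102 ± 534 and 2912 ± 3921 CPM, with 9787 CPM in rotarod 1. The part of these genes in the group values above was not tested.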

How the data were processed

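The authors deposited raw UMI counts per gene and nucleus, and per the deposited annotation each nucleus has a class or population. Per the submitters' processing notes the genome builds were mm10 and GRCm38. The aligner and strand setting were not given in the sources used here, so overlapping or near-identical genes may share counts. Population names were taken as given and doublets were not called again.

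Counts were summed per mouse over VC nuclei (minimum 5) and tested with edgeR 4.0.16 in R 4.3.3 (quasi-likelihood, TMM, low-count filter, 1 fit over the 3 groups), with Benjamini-Hochberg adjustment over all genes tested and a threshold of 0.05. DESeq2 1.42.0 was an alternative. The fits were tested on simulated data. Single values were tested by permutation over mice (scipy 1.17.1). Levels are CPM.

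Other alternatives were DESeq2 size factors, no filter, a minimum of 10 nuclei, each mouse left out, control mice with titles ending in cx left out, only the groups compared, merged formalin pairs, a replicate block, other denominators, thinning and 8 core activity genes. Where fewer than 5 genes were called, the 5 with the smallest p were named as values. In the family, the 20 highest median ratios at 100 CPM or more, and the highest ratios between VC-1 and VC-2, were named, with list members chosen by level; some of these genes are not reported here. Members and lists were chosen with earlier results of these data known. Numbers shared by formalin and rotarod mice do not pair them.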

Additional observations from a re-analysis of the deposited data

Results flagged for a closer look

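Of 60 groups of 4 to 10 mice checked for a mouse far from the others, 8 were flagged. The cut-off flags about 1 in 20 groups of normally distributed values. Several values here rest on few UMIs, so that rate need not hold for them. In formalin mice, rapid activity genes in VC stood at 347 CPM in formalin 8, with the next mouse at 163 CPM. Slc5a7 stood at 173 CPM in formalin 1 (next 49.6), Cartpt at 245 CPM in formalin 10 (next 86.5) and Ppp1r9a at 952 CPM in formalin 1 (next 559).

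In rotarod mice, the log2 ratio of VC to other placed UMIs per nucleus was 0.85 in rotarod 1, with the next mouse at −0.05. Ppp1r9a stood at 419 CPM in rotarod 2 (next 279) and Nedd4l at 1090 CPM in rotarod 2 (next 558), while Epha10 was lowest in rotarod 3, at 112 CPM, with the next at 253 CPM.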

How the results depend on the processing

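Of the values of group summaries under other settings, 251 kept their direction and side of the threshold, 7 newly passed it, 5 counts moved and 3 values reversed. With no filter on low counts (18862 genes) edgeR called 2 genes for formalin against control (Inpp4b and Fbxl7, lower), 4 for formalin against rotarod (Adam12, Kcnmb2, Kirrel3 and mt-Rnr2, all lower) and 1 for rotarod against control (Dok5, higher, adjusted p = 0.00752), all named after their values were seen. For formalin against rotarod, DESeq2 called 1, and leaving out each mouse gave 0 to 1. Over all neurons the formalin difference in the VC share was −1.69 points. The VC-1 share difference between rotarod and control turned to 2.73 points with 10 or more nuclei (2 against 7 mice), and for formalin it ran from 8.11 to 15 points with each mouse left out.

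The rapid activity difference of rotarod from control turned to −5.88 CPM after thinning and ran from 23.4 to 44.1 CPM with each mouse left out, called without control 8 (41.0) and without rotarod 2 (44.1). For formalin it was 77.9 CPM with pairs merged and ran from 35.5 to 80.7 CPM, called without control 8 (77.0) and without formalin 4 (80.7). The UMI ratio was −0.66 against VE, VI and VM. The cause of these shifts was not tested. With the replicate block over 4 formalin and rotarod pairs, edgeR called 0 genes, with 22 at an unadjusted p under 0.05, against 26 in the same mice without it. Deviations of same-numbered mice correlated between −0.1704 and 0.0274, so the numbers are only names. The rapid activity sums rest on 27 UMIs in control and 23 in formalin mice.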
